A study of Mus musculus with 12 samples.

Results

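The mouse mitochondrial genome carries 37 genes, all of whose symbols start with mt-, and all 37 were found among the 57180 genes of the count files. They are 13 genes for proteins of the respiratory chain and ATP synthase, 2 for ribosomal RNA (rRNA) and 22 for transfer RNA (tRNA). The rule that defines them uses the symbol alone. Kidney RNA was sequenced from 12 male C57BL/6J mice aged 60 days at the start, in 3 groups of 4 mice. All mice received 1 intraperitoneal injection a day for 28 days. The Control group received saline with 2% Tween 80, and the 10CBD and 20CBD groups received cannabidiol (CBD, a non-intoxicating compound of Cannabis sativa) in the same vehicle at 10 and 20 mg/kg of body weight. Each library came from a small piece of kidney of 1 mouse, after selection of RNA with poly(A) tails, and the counting of reads on genes left between 15417867 and 23532088 counts per library.

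Mitochondrial DNA is copied from both strands into long transcripts that cover the whole circle. The tRNAs lie between most of the other genes, and excising them frees the messenger and ribosomal RNAs. Mitochondria then extend most of these with short A tails. The proteins made inside the organelle join nuclear-encoded subunits in complexes I, III, IV and V, on which kidney tubules depend for the energy of solute transport.

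The nuclear genome also holds old insertions of mitochondrial DNA, and a read that matches both places equally well cannot be assigned to one of them. In GRCm39, the build the authors mapped to, the longest nuclear copy lay at chr1:24650616-24655269 on the minus strand. It matched bases 6390 to 11042 of the mitochondrial genome over 4654 aligned bases, with 2 mismatches and 1 gap (99.94% identity). This stretch runs from the later part of mt-Co1 through mt-Co2, mt-Atp8, mt-Atp6, mt-Co3, mt-Nd3 and mt-Nd4l into mt-Nd4. A second copy at chr2:22477300-22480546 was 97.36% identical over 3260 aligned bases. The sequences below, from the reference genome, compare 2 stretches with the copy on chromosome 1 (chr1:24654587-24654646 and chr1:24652161-24652220, minus strand). The first 60 bases of mt-Co2 (mitochondrial bases 7013 to 7072) are the same letters in that copy, and bases 9439 to 9498, at the start of mt-Nd3, hold 1 of the mismatches, given in capitals.
mt-Co2, mitochondrial: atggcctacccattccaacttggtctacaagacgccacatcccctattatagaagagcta
mt-Co2, chromosome 1 copy: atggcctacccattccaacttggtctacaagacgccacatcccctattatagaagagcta
mt-Nd3, mitochondrial: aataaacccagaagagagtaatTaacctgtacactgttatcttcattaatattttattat
mt-Nd3, chromosome 1 copy: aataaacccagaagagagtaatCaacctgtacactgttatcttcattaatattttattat

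The overlap with the copy was measured with windows of 150 bases, the length of 1 read. For mt-Co2 (subunit 2 of cytochrome c oxidase), mt-Co3 (its subunit 3), mt-Atp6 and mt-Atp8 (subunits of ATP synthase) and mt-Nd4l (complex I), 100% of the windows inside the gene had an exact nuclear copy. The share was 98.5% inside mt-Nd3 but 44.3% when windows that reach past the ends of mt-Nd3 were included. It was 59.2% inside mt-Nd4, 23.6% inside mt-Co1 and 0% inside mt-Nd1, mt-Nd2, mt-Nd5, mt-Nd6, mt-Cytb, mt-Rnr1 and mt-Rnr2. Reads were mapped as pairs, so the windows describe the sequence and not the fate of single reads.

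Levels per length divided the genes in the same way. Levels are given as CPM, the counts of a gene per 1000000 counts of a library after scaling by TMM factors, and are divided by gene length in kb where genes are compared. The 5 protein genes copied in every window had medians over 12 mice of 7.72 to 17.6 CPM per kb. The 5 protein genes with no exactly copied window had medians of 9117 to 24151 CPM per kb. Of the 3 genes copied in part, mt-Co1 stood at 21008, mt-Nd4 at 8210 and mt-Nd3 at 2067 CPM per kb. The group of 5 low genes therefore lay below every other protein gene, in a stretch of transcript that neighbours mt-Co1 and mt-Nd4.

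**Figure D1:**
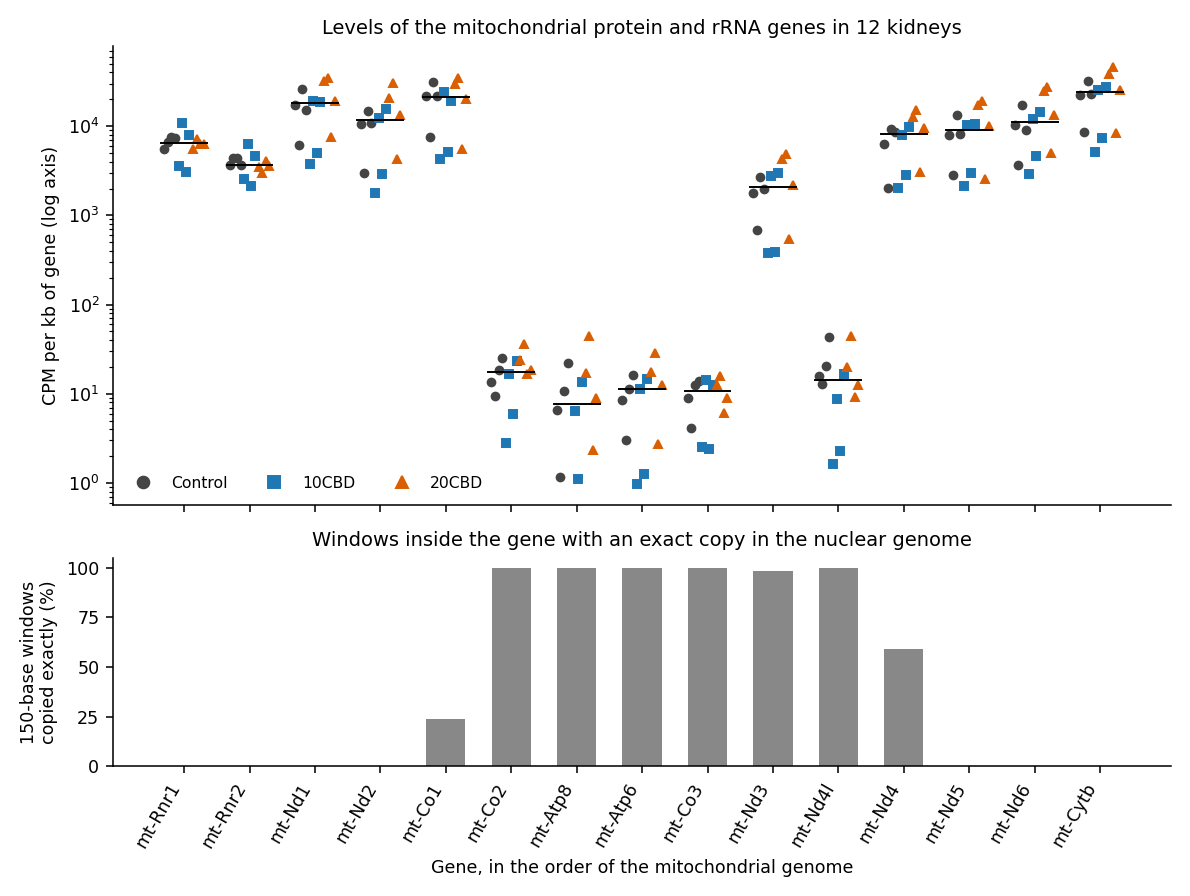
The upper panel gives the level of each mitochondrial protein and rRNA gene in CPM per kb on a log axis, with 1 point per mouse, the group by colour and shape and the median of 12 mice as a bar; a value of 0 (mt-Atp8 in replicate 1 of 10CBD) is not drawn. The lower panel gives the percent of 150-base windows inside each gene with an exact copy in the nuclear genome; the 5 genes at 100% have medians of 7.72 to 17.6 CPM per kb and all others at least 2067.

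Of the pseudogenes annotated in the chromosome 1 copy, those of mt-Co3, mt-Atp6, mt-Co2 and mt-Nd4l had more counts than their mitochondrial parents in every library. mt-Co3 had 42 to 205 counts per library, and Gm28437, its copy on chromosome 1, had 6622 to 12623. mt-Atp6 had 15 to 325 counts, and its copy Atp6-ps had 2007 to 14475. mt-Co2 had 44 to 412 counts, and its copy Gm28661 had 4487 to 15110. mt-Nd4l had 11 to 237 counts, and its copy Gm10222 had 353 to 4029. For these genes and for mt-Atp8 (0 to 151 counts) the files hold only the few fragments placed on the mitochondrial genome, and what came from which genome cannot be told apart, so their levels are uncertain. Of the 13 protein genes, the remaining 8 carried nearly all counts, from 2965 to 28353 per library for mt-Nd3 up to 141652 to 952520 for mt-Co1.

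Among those 8 genes, mt-Cytb, the catalytic cytochrome of complex III, was highest per length (median 24151 CPM per kb), followed by mt-Co1, the catalytic subunit of complex IV (21008), and mt-Nd1 of complex I (18083). The complex I genes mt-Nd2 (11614) and mt-Nd6 (11208), the only protein gene on the minus strand, came next, ahead of mt-Nd5 (9117), mt-Nd4 (8210) and mt-Nd3 (2067). The levels were divided by the whole gene length, including stretches with exact nuclear copies, where reads can be missing from the counts. Such copies cover 23.6% of the windows inside mt-Co1, 59.2% inside mt-Nd4 and 98.5% inside mt-Nd3, and 0% inside the others. The places of these 3 genes in the order are therefore uncertain and may be too low. The ranges of neighbours in this order overlapped, since the spread between mice was 9.24-fold from the lowest to the highest mouse for mt-Nd1 and 8.91-fold for mt-Cytb. As a share of all counts on protein genes of the mitochondrial genome, mt-Co1 took between 20.5% and 28.8% and mt-Cytb between 21.1% and 24.3% in the 12 mice. The summed share of the protein genes in all counts ranged far more widely.

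The rRNA genes mt-Rnr1 and mt-Rnr2, for the small and large subunits of the mitochondrial ribosome, had medians of 6517 and 3659 CPM per kb. Libraries were selected for poly(A), so these are levels of what that selection retained.

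The protein genes also differ at their ends. The last 30 bases of each were read from the genome, and 10 of the 13 genes end with a complete stop codon. mt-Co3, mt-Nd4 and mt-Cytb end 1 base after the last whole codon, on the T in capitals. Their stop codon is completed by the A tail. They are shown with mt-Co1, whose stop codon in capitals is complete in the DNA.
mt-Co1: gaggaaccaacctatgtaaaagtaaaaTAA
mt-Co3: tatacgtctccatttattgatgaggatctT
mt-Nd4: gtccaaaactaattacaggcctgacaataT
mt-Cytb: tcgaagacaaaatactaaaattatatccaT

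Most tRNA genes had few counts. Of the 22 tRNA genes, 4 (mt-Ty, mt-Td, mt-Tk and mt-Tg) had 0 counts in all 12 libraries, which allows up to 3 assigned counts per library by counting error, or 0.127 to 0.195 CPM. It is no limit on the level of these RNAs, which the selection may not retain and whose reads can match a nuclear copy too. An exact nuclear copy exists for 100% of the windows over mt-Td and mt-Tk, 32.3% of those over mt-Tg and 12% of those over mt-Ty. A further 3 genes, mt-Tw, mt-Ts1 and mt-Th, had at most 3 counts in all libraries together. The 4 tRNA genes with the most counts in all libraries together were mt-Tq (29603), mt-Tp (15069), mt-Te (5903) and mt-Tm (1847). Per length, mt-Tq (median 1281 CPM per kb), mt-Tp and mt-Te (373) lay below mt-Nd3 and above the 5 protein genes with exact copies throughout. Of these, mt-Tq, mt-Tp and mt-Te lie on the minus strand. Whether the counting used the strand is not given in the sources used here, and without it, fragments of plus-strand transcripts that cross these genes cannot be told apart from transcripts of the genes. The same holds for mt-Nd6 on that strand. The genes are printed with the anticodon in capitals, together with mt-Tc, to which the comparison of the groups returns. The anticodon for each amino acid was given beforehand. It was then located in the middle of a loop of 7 bases between stems of 5 paired bases, with G and T taken as a pair.
mt-Tq, glutamine, chrM:3772-3842, minus strand: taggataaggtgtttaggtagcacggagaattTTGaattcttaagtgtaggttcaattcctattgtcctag
mt-Te, glutamate, chrM:14071-14139, minus strand: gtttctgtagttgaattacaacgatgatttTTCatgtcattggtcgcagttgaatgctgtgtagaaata
mt-Tp, proline, chrM:15356-15422, minus strand: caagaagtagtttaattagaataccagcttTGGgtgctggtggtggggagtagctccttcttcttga
mt-Tc, cysteine, chrM:5192-5257, minus strand: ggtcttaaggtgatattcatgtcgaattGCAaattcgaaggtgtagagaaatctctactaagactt

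The share of counts on mitochondrial genes differed between mice of the same group as much as between groups. In Control mice 1 to 4 the 37 genes took 12.8%, 5.77%, 17.6% and 13.5% of the counts on genes. In 10CBD mice 1 to 4 they took 3.53%, 15.3%, 4.55% and 15.3%. In 20CBD mice 1 to 4 they took 20.6%, 23.4%, 5.54% and 14.0%. The means were 12.4% ± 4.89 (SD, n = 4), 9.66% ± 6.51 (SD, n = 4) and 15.9% ± 7.94 (SD, n = 4), and the ranges of all 3 groups overlapped. The share is a sum over the members and was not tested. The 95% Wilson interval of a share was at most 0.0389 percentage points wide in any library, so counting error is small beside the spread between mice.

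The protein genes varied more than the rRNA genes. The protein genes took 2.71% to 22.3% of the counts, 8.22-fold between the lowest and the highest mouse. The rRNA genes took 0.669% to 2.00%, 2.99-fold, and their means were 1.29% ± 0.125 (SD, n = 4) in Control, 1.24% ± 0.634 (SD, n = 4) in 10CBD and 1.13% ± 0.117 (SD, n = 4) in 20CBD. The tRNA genes took 0.00738% to 0.0513%. Replicate 2 of Control, replicates 1 and 3 of 10CBD and replicate 3 of 20CBD were the 4 lowest libraries for 11 of the 13 protein genes (all but mt-Co2 and mt-Nd4l) and for neither rRNA gene. Within 10CBD both kinds of gene had the same low mice, since replicates 1 and 3 were the 2 lowest of all 12 libraries for mt-Rnr1 and mt-Rnr2 as well as for mt-Co1. The 2 other libraries low in mt-Co1 were not among the 4 lowest for either rRNA gene. In replicate 3 of 20CBD, mt-Co1 had 8495 CPM and mt-Rnr2 6489 CPM, while in replicate 2 of 20CBD they had 52995 and 4727 CPM.

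**Figure D2:**
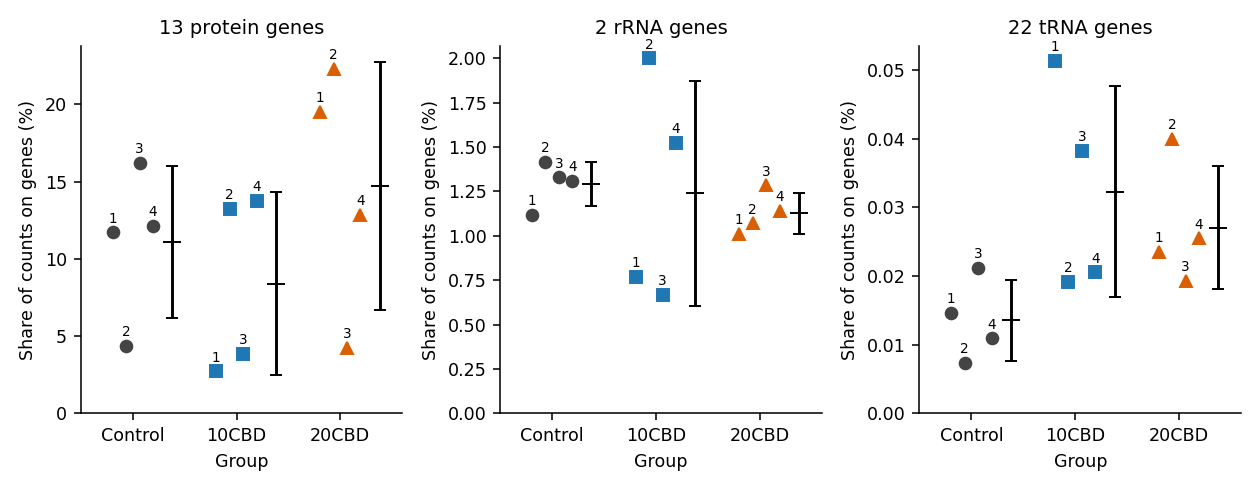
Each panel gives the share of counts on genes, in percent, of the 13 protein genes, the 2 rRNA genes or the 22 tRNA genes, with 1 numbered point per mouse and the mean and SD of 4 mice at the right of each group. In the panel of protein genes, replicate 2 of Control, replicates 1 and 3 of 10CBD and replicate 3 of 20CBD lie at 4.35% or below, and in the panel of tRNA genes replicates 1 and 3 of 10CBD are at 0.0513% and 0.0382%.

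Other measures of these libraries were set beside the mitochondrial messenger RNA. The same 4 libraries had the lowest shares of alignments at several places, 10.7% to 11.5% against 13.3% to 17.4% in the other 8. Mitochondrial reads that match a nuclear copy can be among these alignments, so this share is not independent of the mitochondrial level. Reads on no gene made up 16.1% to 19.9% of the uniquely aligned reads in these 4 and 12.1% to 16.3% in the other 8, ranges that overlapped. Rn18s-rs5, a gene for nuclear 18S rRNA, took 6.70% to 8.80% of the counts in these 4 and 4.22% to 7.29% in the other 8. Those totals include the mitochondrial counts. Of the counts not on mitochondrial genes, its share was 7.09% to 9.34% in these 4 and 5.31% to 8.61% in the other 8, with overlap. All 42 marker genes of kidney and other cell types passed the filter on low counts. The summed level of 8 proximal tubule markers was 10380 to 12495 CPM in these 4 and 9832 to 13047 CPM in the other 8, and that of 8 podocyte and endothelial markers was 534 to 609 CPM and 608 to 764 CPM. The part of these measures in the levels of the mitochondrial genes was not tested. In bulk tissue, fewer cells of a type and less RNA per cell cannot be told apart.

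Nuclear genes for partner subunits did not follow the mitochondrial messenger RNA. The summed level of 37 nuclear complex I genes was 7011 to 8692 CPM in the 4 libraries with the lowest mt-Co1 and 5530 to 6797 CPM in the other 8, so all 4 were the highest. For 9 nuclear complex III genes the sums were 2576 to 3509 CPM in the 4 and 1953 to 2538 CPM in the other 8, again without overlap. For 13 nuclear complex IV genes, 3111 to 4005 CPM and 3023 to 3837 CPM overlapped, and so did the sums for complex V (8610 to 9890 CPM and 7276 to 8741 CPM). With nuclear genes alone as the total, all 4 were again the highest for complexes I and III. This is a description of 12 libraries, ordered by their own mt-Co1 level, and no test was made.

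The spread between mice of a group limits what a comparison of the doses can show. The SD of log2 CPM within groups was 0.91 to 1.81 for the protein genes (median 1.10) and 0.59 to 1.32 for the tRNA genes tested. It was 0.54 for mt-Rnr1 and 0.45 for mt-Rnr2. Over all 17163 genes tested the median SD was 0.29, and over the 1654 genes with a mean of at least 100 CPM it was 0.21. The protein genes thus had a wider spread than most genes, also among well expressed ones.

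The comparison of each dose with Control asked which genes CBD altered in the kidney. edgeR's quasi-likelihood test covered 27 of the 37 genes, namely the 13 protein genes, both rRNA genes and 12 tRNA genes, since 10 tRNA genes did not pass the filter on low counts. At a Benjamini-Hochberg adjusted p under 0.1, 0 of the 27 were called at 10 mg, where 0.0291% of all genes tested were called. At 20 mg 0 of the 27 were called as well, beside 0.303% of all genes tested. Between the doses 0 were called, beside 0% of all genes tested. limma-voom also called 0 in each comparison. DESeq2, the tool the authors used, called 1 at 10 mg (mt-Tc) and 0 in the other comparisons. Over all genes DESeq2 called 40 at 10 mg, 182 at 20 mg and 12 between the doses, more than edgeR. At an unadjusted p under 0.05, edgeR gave 11 of the 27 at 10 mg (5.67% of all genes tested), 3 at 20 mg (8.45%) and 2 between the doses (6.31%). Each dose was compared with the same 4 Control mice, so the comparisons are not independent of each other.

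At 10 mg all 13 protein genes had log2 fold changes below 0, with a median of -0.41, beside 0.01 over all genes tested. mt-Co1 was at 33375, 11768, 47979 and 34016 CPM in Control, 6559, 37768, 7915 and 29429 CPM in 10CBD and 46395, 52995, 8495 and 31538 CPM in 20CBD. The 3 groups overlapped, and each held at least 1 of the 4 lowest mice. Its log2 fold change was -0.64 ± 0.60 (SE) at 10 mg, with a 95% interval of -1.91 to 0.63 (edgeR adjusted p = 0.922). At 20 mg it was 0.13 ± 0.59 (SE), with an interval of -1.13 to 1.40 (edgeR adjusted p = 0.980). Both intervals include 0.

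mt-Cytb was at 25449, 9912, 37119 and 26470 CPM in Control, 5941, 28788, 8535 and 31232 CPM in 10CBD and 43545, 52926, 9526 and 29026 CPM in 20CBD. Its log2 fold change was -0.41 ± 0.56 (SE) at 10 mg (edgeR adjusted p = 0.942) and 0.45 ± 0.56 (SE) at 20 mg (edgeR adjusted p = 0.885). The groups overlapped in the same way as for mt-Co1.

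Of the 7 complex I genes, mt-Nd1 was at 16649, 5901, 24964 and 14466 CPM in Control, 3632, 18402, 4783 and 17962 CPM in 10CBD and 30567, 33556, 7231 and 18222 CPM in 20CBD. mt-Nd5, a subunit of the proton-pumping arm, was at 14685, 5209, 24241 and 15083 CPM in Control, 3918, 18957, 5401 and 19122 CPM in 10CBD and 31902, 35256, 4700 and 18177 CPM in 20CBD. For both, replicates 1 and 2 of 20CBD were the highest of all 12 mice and replicate 1 of 10CBD the lowest, and the groups overlapped. Their log2 fold changes were -0.47 and -0.32 at 10 mg and 0.53 and 0.60 at 20 mg.

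mt-Nd6 was at 5318, 1888, 8912 and 4729 CPM in Control, 1497, 6315, 2377 and 7495 CPM in 10CBD and 13029, 14123, 2593 and 6995 CPM in 20CBD. Its log2 fold change at 20 mg was 0.82 ± 0.56 (SE), with an interval of -0.38 to 2.02 (edgeR adjusted p = 0.764), the smallest adjusted p of a protein gene in that comparison. mt-Nd2 was at 10892, 3080, 15349 and 11279 CPM in Control, 1868, 12831, 2999 and 15987 CPM in 10CBD and 21744, 32007, 4458 and 13828 CPM in 20CBD. The groups overlapped for mt-Nd6 and mt-Nd2, with replicates 1 and 2 of 20CBD highest. mt-Nd3 was at 619, 236, 947 and 683 CPM in Control, 131, 967, 136 and 1035 CPM in 10CBD and 1499, 1697, 188 and 756 CPM in 20CBD. mt-Nd4 was at 8697, 2776, 12650 and 11769 CPM in Control, 2809, 10857, 3956 and 13603 CPM in 10CBD and 17606, 20703, 4215 and 13015 CPM in 20CBD. These groups overlapped too. mt-Nd2 (0.83), mt-Nd3 (0.74) and mt-Nd4 (0.63) had log2 fold changes of a like size at 20 mg, and -0.27, -0.13 and -0.20 at 10 mg. mt-Nd4l, with few counts, was at 4.75, 3.82, 6.10 and 12.9 CPM in Control, 0.486, 2.57, 0.678 and 4.93 CPM in 10CBD and 5.97, 13.3, 2.76 and 3.73 CPM in 20CBD. The groups overlapped by replicate 4 of 10CBD, and it had a log2 fold change of -1.71 ± 0.64 (SE) at 10 mg (edgeR adjusted p = 0.812) and -0.09 at 20 mg.

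The 5 genes with exact nuclear copies throughout rest on few counts. mt-Co2 was at 9.37, 6.39, 12.7 and 17.4 CPM in Control, 1.95, 11.3, 4.02 and 15.9 CPM in 10CBD and 16.3, 24.7, 11.3 and 12.8 CPM in 20CBD. mt-Co3 was at 7.01, 3.24, 9.72 and 10.9 CPM in Control, 1.989, 11.2, 1.90 and 9.74 CPM in 10CBD and 9.72, 12.3, 4.74 and 7.001 CPM in 20CBD. The groups overlapped for both of these genes of cytochrome c oxidase. mt-Atp6 was at 5.80, 2.05, 7.66 and 11.2 CPM in Control, 0.663, 7.79, 0.858 and 10.1 CPM in 10CBD and 12.0, 19.5, 1.86 and 8.47 CPM in 20CBD. mt-Atp8 was at 1.34, 0.238, 2.17 and 4.57 CPM in Control, 0, 1.32, 0.226 and 2.76 CPM in 10CBD and 3.46, 9.04, 0.480 and 1.81 CPM in 20CBD. The groups overlapped for both ATP synthase genes, and replicates 1 and 3 of 10CBD were the lowest for mt-Atp6.

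mt-Atp8 had log2 fold changes of -1.004 ± 0.98 (SE) at 10 mg and 0.84 ± 0.90 (SE) at 20 mg, and it was at 0 counts in replicate 1 of 10CBD. mt-Atp6 had -0.49 and 0.65, mt-Co2 -0.49 and 0.50 and mt-Co3 -0.34 and 0.13 at 10 and 20 mg. When the counts of the nuclear pseudogenes were added to their parent genes, the log2 fold change at 10 mg turned to 0.31 for mt-Co2 and 0.18 for mt-Co3 and stayed below 0 for mt-Atp6 (-0.18). The pseudogenes themselves were not called in any comparison, and their log2 fold changes at 10 mg included 0.19 for Gm28437 and -0.20 for Gm28661.

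Between the doses, all 13 protein genes had log2 fold changes above 0 for 20 mg over 10 mg, with a median of 0.99 and a range of 0.47 to 1.85, beside 0.00 over all genes tested. None passed the test, and the smallest adjusted p was 0.759 for mt-Nd4l (edgeR). At 20 mg against Control, 12 of the 13 were above 0, with a median of 0.60. The direction at 10 mg rested on replicates 1 and 3 of 10CBD. Without both, which was tried after seeing the data, 11 of the 13 protein genes had log2 fold changes above 0 at 10 mg. Among them were mt-Co1 at 0.07 and mt-Nd1 at 0.22, and all but mt-Co3 were still above 0 for 20 mg over 10 mg. Both mice were chosen as the lowest for mt-Co1, while the low mice of Control and 20CBD stayed in. The change of direction follows from that choice and is no test.

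The rRNA genes were near Control in both dose groups on average. mt-Rnr1 was at 5244, 6376, 7184 and 7011 CPM in Control, 3383, 10369, 2938 and 7687 CPM in 10CBD and 5236, 6946, 6070 and 6027 CPM in 20CBD. mt-Rnr2 was at 5822, 6916, 6942 and 5757 CPM in Control, 4065, 9972, 3352 and 7367 CPM in 10CBD and 5462, 4727, 6489 and 5668 CPM in 20CBD. In 10CBD the mice fell into a high and a low pair on either side of Control for both genes, while 20CBD overlapped Control. The log2 fold changes of mt-Rnr1 were -0.08 ± 0.32 (SE) at 10 mg and -0.09 ± 0.32 (SE) at 20 mg, and those of mt-Rnr2 were -0.04 ± 0.28 (SE) and -0.19 ± 0.28 (SE). The 95% interval of mt-Rnr2 at 20 mg was -0.77 to 0.40.

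The counts on the tRNA genes tested went the other way from those on the protein genes at 10 mg. All 12 had log2 fold changes above 0 at 10 mg (median 1.72, range 0.08 to 2.00), and 10 of them had an unadjusted p under 0.05, as did 5.67% of all genes tested. The filter on low counts looks at all 3 groups, so a gene low in Control can pass it through the treated mice. This favours positive fold changes among the tRNA genes tested. With at least 10 counts required in every library, 20 mitochondrial genes were tested and 5 had such a p at 10 mg, against 11 of 27. Without replicates 1 and 3 of 10CBD, the mitochondrial genes with such a p at 10 mg fell from 11 to 3. These mice were the highest for most of the tRNA genes tested, and leaving them out shrinks the group, so the fall is no independent check. At 20 mg all 12 were above 0 as well (median 0.81, range 0.43 to 1.30), and 3 had an unadjusted p under 0.05, namely mt-Tq, mt-Ta and mt-Tc, beside 8.45% of all genes tested. For 20 mg over 10 mg 1 of the 12, mt-Tp, was above 0. The genes share the same 12 libraries and parts of the same transcripts, so they are not independent of each other.

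Replicates 1 and 3 of 10CBD, which were low in messenger RNA, were the 2 highest libraries for 8 of the 12 tRNA genes tested. mt-Tq was at 56.4, 35.4, 98.4 and 31.6 CPM in Control, 362, 83.5, 225 and 80.2 CPM in 10CBD and 66.1, 205, 125 and 143 CPM in 20CBD. Replicates 1 and 3 of 10CBD and replicate 2 of 20CBD stood above the rest, and the groups overlapped. Its log2 fold change was 1.76 ± 0.49 (SE) at 10 mg (edgeR adjusted p = 0.742) and 1.28 ± 0.48 (SE) at 20 mg (edgeR adjusted p = 0.475). Without replicates 1 and 3 of 10CBD it was 0.55 at 10 mg. mt-Te was at 19.7, 6.97, 35.8 and 4.57 CPM in Control, 49.6, 25.6, 32.5 and 19.8 CPM in 10CBD and 31.2, 44.1, 12.1 and 25.9 CPM in 20CBD. mt-Tm, the methionine tRNA on the plus strand, was at 3.15, 3.67, 5.74 and 1.74 CPM in Control, 20.6, 4.29, 25.9 and 4.05 CPM in 10CBD and 1.58, 8.56, 6.24 and 5.76 CPM in 20CBD. Both overlapped between the groups, and without replicates 1 and 3 the 10CBD mice lay within the Control range for each. mt-Tp had another order. It was at 55.1, 16.8, 73.3 and 64.0 CPM in Control, 27.1, 66.7, 37.9 and 90.3 CPM in 10CBD and 142, 154, 31.8 and 70.7 CPM in 20CBD, with the same 4 lowest libraries as mt-Co1.

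mt-Tc, the cysteine tRNA, was the 1 member whose values in both dose groups did not overlap those in Control. It was at 1.13, 0.668, 1.16 and 0.435 CPM in Control, 4.73, 2.31, 3.43 and 1.29 CPM in 10CBD and 1.991, 2.87, 1.98 and 1.64 CPM in 20CBD. The lowest of the 8 treated mice was at 1.29 CPM and the highest of the Control mice at 1.16 CPM, while 1.55% of all genes tested lay wholly above Control at 10 mg and 2.67% at 20 mg. At each dose this was 1 of the 27 members tested. The share of all genes above Control at both doses was not counted, and both doses share the same Control mice. The mt-Tc values rest on 8 to 107 counts per library. The log2 fold change was 1.79 ± 0.39 (SE) at 10 mg, with an interval of 0.95 to 2.62 (edgeR adjusted p = 0.432). At 20 mg it was 1.30 ± 0.40 (SE), with an interval of 0.45 to 2.15 (edgeR adjusted p = 0.362). DESeq2 called it at 10 mg (adjusted p = 0.00971) and did not at 20 mg (adjusted p = 0.117). Over the alternatives with edgeR or limma-voom that kept the filter on low counts, it was called in none, with adjusted p-values of 0.150 to 1.00 at 10 mg and 0.212 to 0.697 at 20 mg. With no filter on low counts, edgeR called mt-Tc at 10 mg (adjusted p = 3.465e-05) and at 20 mg (adjusted p = 0.0177), in a fit that called 331 and 416 genes in all. Without replicates 1 and 3 of 10CBD its log2 fold change at 10 mg was 1.05.

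**Figure D3:**
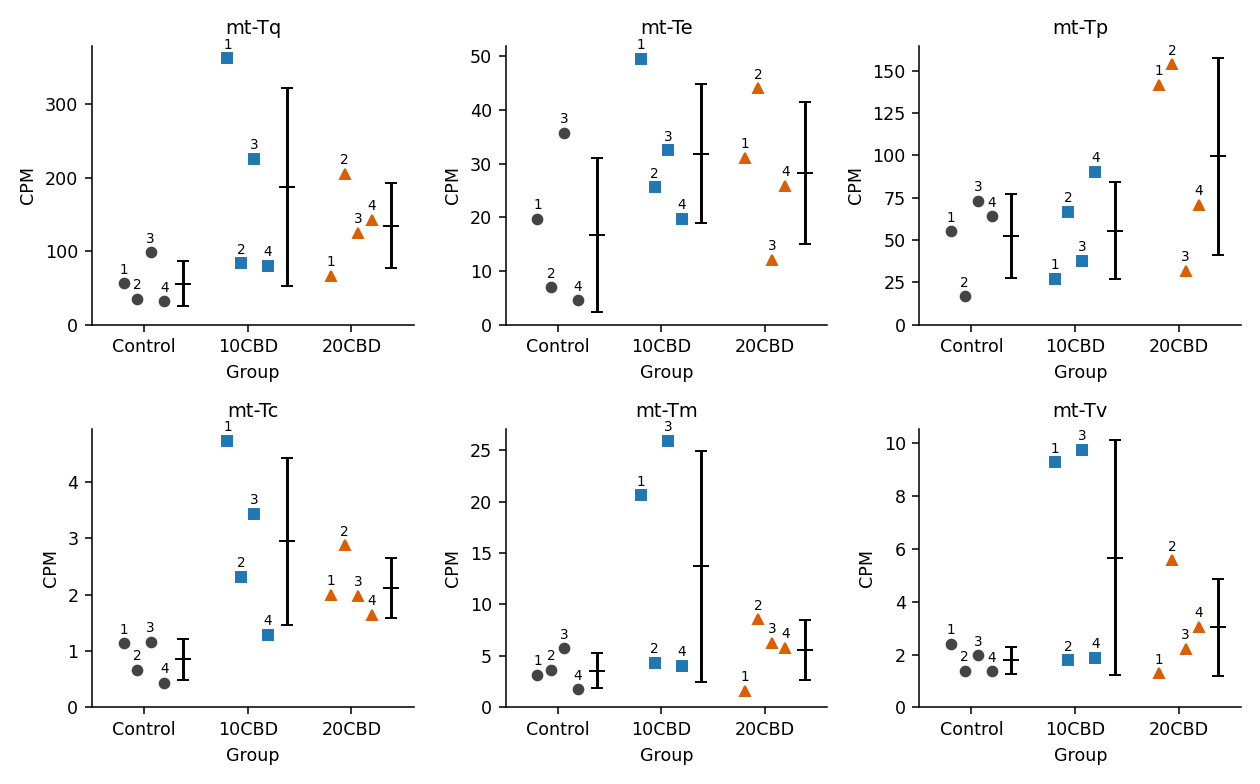
Each panel gives the CPM of 1 tRNA gene, with 1 numbered point per mouse and the mean and SD of 4 mice at the right of each group; all axes start at 0. Replicates 1 and 3 of 10CBD are the highest for mt-Tq, mt-Tm, mt-Tv and mt-Tc but not for mt-Te or mt-Tp, and for mt-Tc the 8 treated mice start above the highest Control mouse.

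The copy on chromosome 2 had a like order for 1 of its pseudogenes. Gm13341, which corresponds to mt-Co2, was at 300, 256, 342 and 97.1 CPM in Control, 543, 267, 931 and 270 CPM in 10CBD and 289, 355, 494 and 403 CPM in 20CBD. Replicates 1 and 3 of 10CBD were the highest, as for mt-Tq, and Gm13341 is named here for that order. Other pseudogenes of the copy did not share it. Gm13340 was at 504 and 223 CPM in replicates 1 and 3 of 10CBD, and Gm13339 at 8.22 and 18.3 CPM, where replicate 1 was the lowest library. The log2 fold change of Gm13341 at 10 mg was 1.02 ± 0.40 (SE), which was not called (edgeR adjusted p = 0.812). Reads on no gene were at 17.0% and 19.9% in these replicates and at 16.3% and 14.8% in the other mice of the group. Their part in the tRNA values was not tested.

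**Figure D4:**
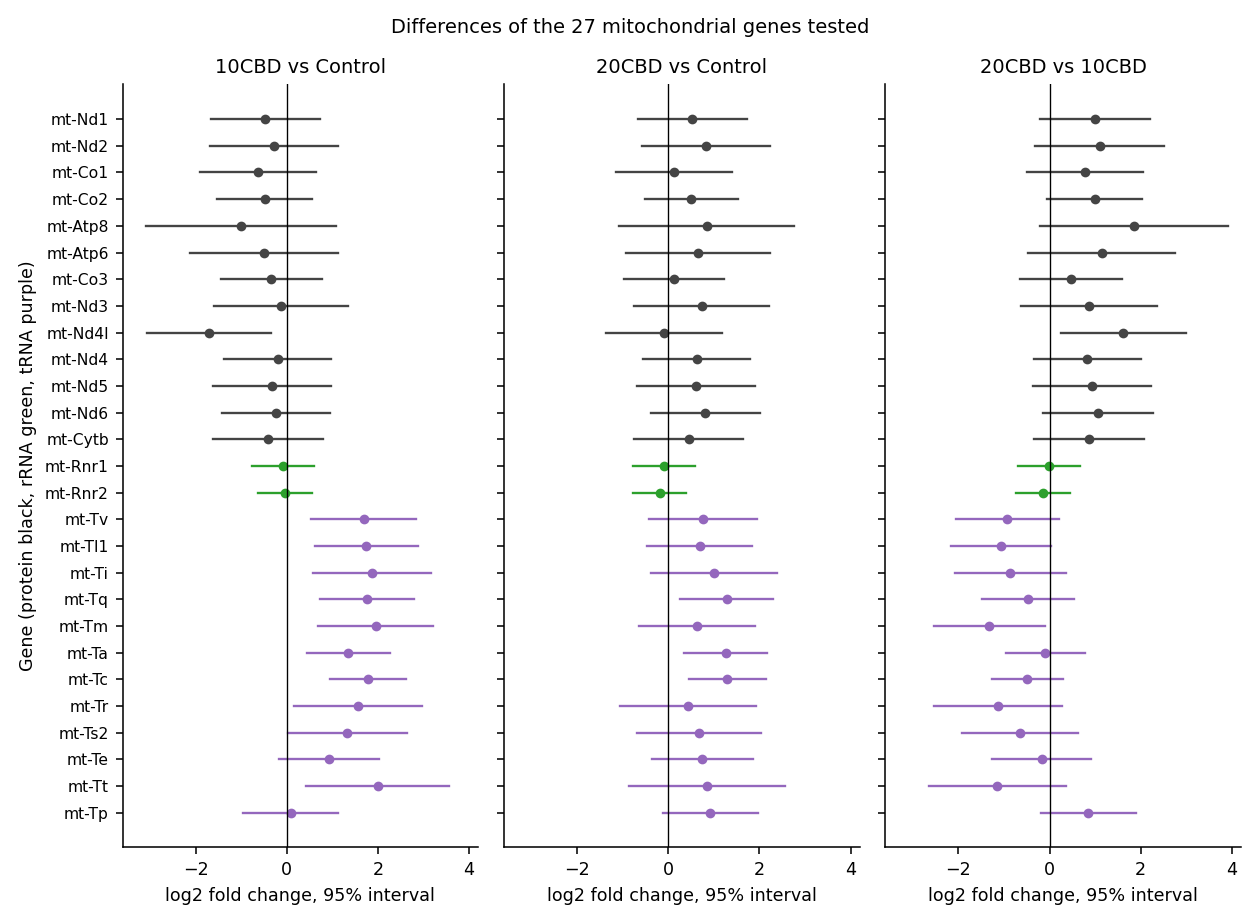
The 3 panels give the log2 fold change of the 27 mitochondrial genes tested, with its 95% interval from edgeR, for 10CBD against Control, 20CBD against Control and 20CBD against 10CBD; protein genes are black, rRNA genes green and tRNA genes purple. At 10 mg the protein genes lie below 0 and the tRNA genes above 0, and 0 of the 27 were called in any panel.

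A ratio of 2 genes within a library does not change with its depth or with the scaling factor. The ratios of 6 pairs of genes were compared between groups with exact two-sided permutation tests of mean log2 ratios, 18 comparisons in all. With 4 mice against 4 the smallest p that the 70 arrangements allow is 0.0286. At 20 mg, 3 of the 6 ratios reached it, with all 4 treated mice above all 4 Control mice. After Benjamini-Hochberg adjustment over the 18 comparisons, these 3 had an adjusted p of 0.172, and none passed the threshold.

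The ratio of mt-Nd5 to mt-Co1 was 0.440, 0.443, 0.505 and 0.443 in Control, 0.597, 0.502, 0.682 and 0.650 in 10CBD and 0.688, 0.665, 0.553 and 0.576 in 20CBD. The 20CBD mice lay above all Control mice, and 3 of the 10CBD mice did. The log2 ratio was higher than in Control by 0.44 ± 0.09 (SE) at 20 mg (exact permutation p = 0.0286) and by 0.40 ± 0.11 (SE) at 10 mg (exact permutation p = 0.0571, adjusted p = 0.257). It differed between the doses by 0.03 ± 0.12 (SE) (exact permutation p = 0.857). The 4 libraries low in messenger RNA did not stand apart here, with 0.443, 0.597, 0.682 and 0.553.

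The ratio of mt-Cytb to mt-Co1 was 0.762, 0.842, 0.774 and 0.778 in Control, 0.906, 0.762, 1.08 and 1.06 in 10CBD and 0.939, 0.999, 1.12 and 0.920 in 20CBD. The log2 ratio was higher than in Control by 0.33 ± 0.07 (SE) at 20 mg (exact permutation p = 0.0286) and by 0.26 ± 0.12 (SE) at 10 mg (exact permutation p = 0.143, adjusted p = 0.468). Replicate 2 of 10CBD was the 1 mouse of that group not above all Control mice, for this ratio and for the one before. With each 10CBD mouse left out in turn, the difference at 10 mg was 0.34 to 0.49 for mt-Nd5 to mt-Co1 and 0.19 to 0.36 for mt-Cytb to mt-Co1. The ratios share mt-Co1, the later part of which has exact nuclear copies. With the counts of the pseudogenes added, the differences at 20 mg were 0.42 and 0.31, at the same p.

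The ratio of mt-Nd6 to mt-Nd5 sets the counts on the only protein gene of the minus strand against those on a gene of the other strand. The 2 genes overlap by 14 bases. As the strand setting is not given, the counts on mt-Nd6 can include transcripts of the other strand. It was 0.362, 0.362, 0.368 and 0.314 in Control, 0.382, 0.333, 0.440 and 0.392 in 10CBD and 0.408, 0.401, 0.552 and 0.385 in 20CBD. The log2 ratio was higher than in Control by 0.30 ± 0.13 (SE) at 20 mg (exact permutation p = 0.0286) and by 0.13 ± 0.10 (SE) at 10 mg (exact permutation p = 0.286, adjusted p = 0.468). With any 1 of the 4 Control mice left out, the difference at 20 mg was 0.25 to 0.32 and p rose to at least the next value (exact permutation p = 0.0571). Without replicate 3 of 20CBD it was 0.18.

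**Figure D5:**
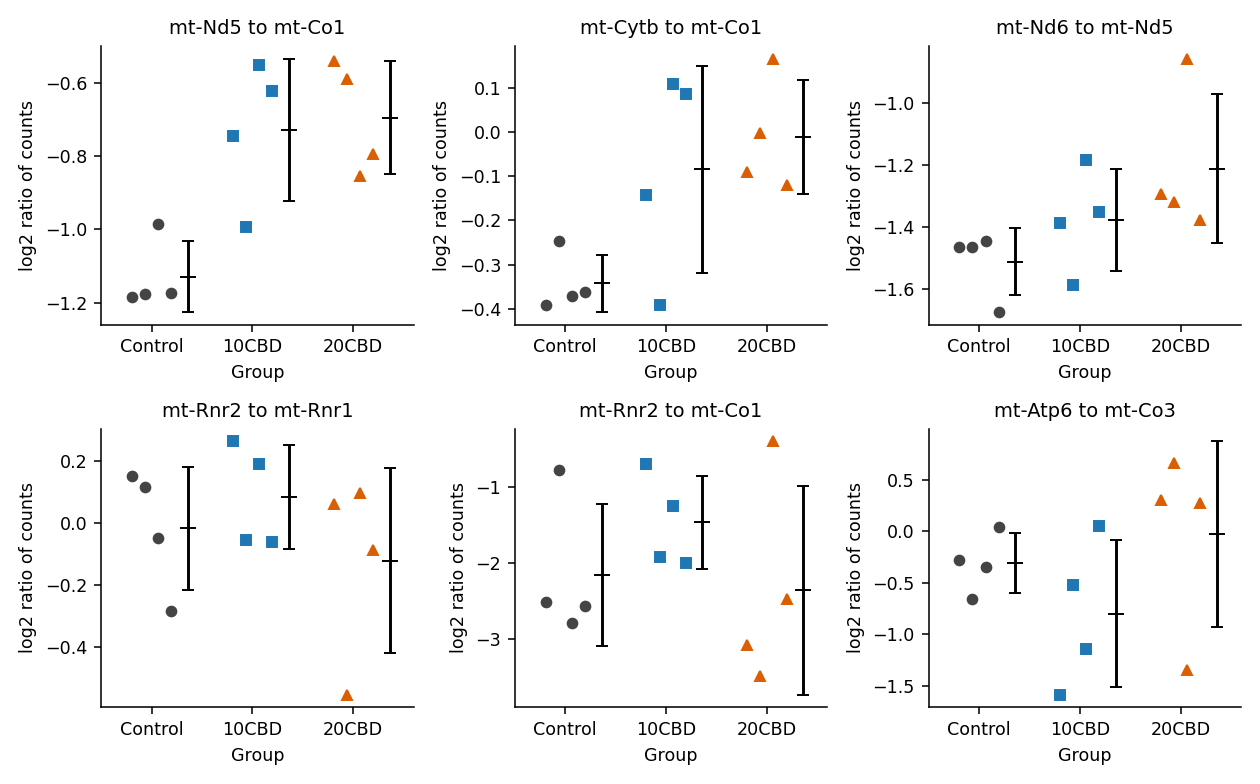
Each panel gives the log2 ratio of the counts of 2 mitochondrial genes, with 1 point per mouse and the mean and SD of 4 mice at the right of each group. In the panels of mt-Nd5 to mt-Co1, mt-Cytb to mt-Co1 and mt-Nd6 to mt-Nd5 all 4 mice of 20CBD lie above all 4 of Control, and in the other 3 panels the groups overlap.

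The remaining ratios overlapped between all groups. The ratio of mt-Rnr2 to mt-Rnr1 was 0.821 to 1.11 in Control, 0.958 to 1.202 in 10CBD and 0.681 to 1.07 in 20CBD. mt-Rnr2 to mt-Co1, the large-subunit rRNA against a messenger RNA, ranged most, from 0.0892 to 0.764, and was highest in the 4 libraries low in messenger RNA. Those 4 are the lowest for mt-Co1, by which the ratio divides, so this order follows largely from how they were picked. mt-Atp6 to mt-Co3 ranged from 0.333 to 1.58 and rests on few fragments. The log2 differences of mt-Rnr2 to mt-Co1 were 0.70 ± 0.56 (SE) at 10 mg (exact permutation p = 0.200) and -0.20 ± 0.83 (SE) at 20 mg (exact permutation p = 0.743).

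Among nuclear genes that copy, process or complement the mitochondrial genome, 134 of 136 in 7 lists passed the filter, and 0 were called in any comparison with edgeR. At an unadjusted p under 0.05, 7 (5.22%) were found at 10 mg, 9 (6.72%) at 20 mg and 13 (9.7%) between the doses, beside 5.67%, 8.45% and 6.31% of all genes tested. The median log2 fold change over the 134 was -0.03 at 10 mg and 0.03 at 20 mg, beside 0.01 over all genes tested in both. Of the 20 genes of mitochondrial DNA transcription and replication, Polg, the mitochondrial DNA polymerase, had -0.27 ± 0.11 (SE) at 20 mg (edgeR adjusted p = 0.520) and Twnk, the replicative helicase, -0.33 ± 0.15 (SE). Of the genes of RNA processing and decay, Fastkd2 had -0.34 and Ptcd3 -0.35 at 20 mg. Clpx, a chaperone of the matrix protease, was at 352, 314, 335 and 272 CPM in Control and 295, 190, 223 and 210 CPM in 20CBD, groups that overlapped, with a log2 fold change of -0.47 ± 0.15 (SE) and the smallest adjusted p of the lists (edgeR adjusted p = 0.364). Pprc1, a coactivator of the PGC-1 family, had -0.27 at 20 mg.

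Nuclear subunits of the complexes had values in both directions. Ndufb8 had a log2 fold change of 0.70 ± 0.24 (SE) and Ndufs1 of -0.33 ± 0.14 (SE) at 20 mg, both of complex I. Cox6a1 (0.50) and Cox6b1 (0.29) of complex IV were above 0 at 20 mg, and 11 of the 13 genes of that list were. In complex III Uqcrc2 had -0.36 and Uqcr10 0.29, and in complex V the inhibitor Atp5if1 had 0.43 and Atp5me 0.35. None of these passed the test.

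Levels of kidney cell markers were compared in the same way. Of 42 marker genes tested, 1 was called at 20 mg, beside 0.303% of all genes tested, and 0 in the other comparisons. It was Slc5a2, the glucose transporter of the early proximal tubule (log2 fold change -0.61 ± 0.12 (SE), edgeR adjusted p = 0.0820). Slc5a2 was at 215, 222, 197 and 236 CPM in Control and 131, 138, 140 and 162 CPM in 20CBD. Lrp2, the endocytic receptor megalin of the same tubule, also lay wholly below Control (log2 fold change -0.76 ± 0.18 (SE), edgeR adjusted p = 0.173). Lrp2 was at 2157, 2211, 1891 and 2649 CPM in Control and 1630, 1089, 1035 and 1524 CPM in 20CBD. Of the 8 proximal tubule markers only these 2 did so, and Slc27a2 (0.02), Slc22a6 (-0.03) and Aqp1 (-0.13) changed less. Over all 17163 genes tested, 451 lay wholly below Control at 20 mg. Outside the proximal tubule, Kdr of the endothelium did too (log2 fold change -0.33 ± 0.11 (SE), edgeR adjusted p = 0.418). In the list of Kdr, 5 of 8 markers were above 0. Calb1 and Slc12a3 of the distal convoluted tubule had -0.91 ± 0.22 (SE) and -0.48 ± 0.16 (SE) at 20 mg (edgeR adjusted p = 0.168 and 0.391). The groups overlapped for both. The fat cell markers had the largest marker fold changes at 20 mg, -3.42 for Adipoq, -3.02 for Cidec and -2.51 for Plin1 on the log2 scale (edgeR adjusted p = 0.347, 0.253 and 0.382). Adipoq was at 1.06 to 19.2 CPM in Control and 0 to 2.6 CPM in 20CBD, groups that overlapped. Apart from Slc5a2, the markers in this paragraph were named after their values were seen. The summed level of 8 proximal tubule markers was 11624 to 13047 CPM in Control, 10845 to 12495 CPM in 10CBD and 9832 to 11634 CPM in 20CBD. That of 3 distal convoluted tubule markers was 617 to 1024 CPM, 663 to 804 CPM and 568 to 642 CPM. Their part in the ratios of the mitochondrial genes at 20 mg was not tested.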

How the data were processed

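Poly(A)-selected RNA from the kidneys of 12 mice was sequenced as paired reads of 150 bases. The authors trimmed reads with Flexbar, mapped them with STAR 2.7.5c to GRCm39 and counted them with HTSeq 1.99.2, and the deposited files hold raw counts per gene. The annotation release, strand setting and use of molecular identifiers are not given in the sources used here. Repeated reads of a molecule were not removed here, and the Wilson intervals of the shares cover counting error only, with each count taken as separate. The intervals of log2 fold changes come from the edgeR fit and include the spread between mice. No pair of libraries held identical counts.

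Identifiers were matched to GENCODE vM39 (99.02%, holding 99.95% of counts). Genes passing filterByExpr (17163) were fitted with edgeR 4.0.16 in R 4.3.3, with TMM scaling, a mean per group over all 12 libraries and the quasi-likelihood test, and called at an adjusted p under 0.1. Replicates are separate mice. limma 3.58.1 (voom), DESeq2 1.42.0, other scalings, filters, a replicate block, added pseudogene counts and each library left out were tried. Nuclear copies were found with BLAST 2.17.0 (word size 28). Tests were checked on simulated data. All protein and rRNA genes, tested or extreme tRNA genes, and in each nuclear list the called genes and the 2 of smallest p at 20 mg are named. The members and lists were chosen with earlier results of these data known.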

Additional observations from a re-analysis of the deposited data

Results flagged for a closer look

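Within groups of 4 mice, 4 of 102 sets of values held a mouse whose distance from its nearest neighbour exceeded Dixon's 95% critical value for the range of the group, and chance gives about 1 such mouse in 20 sets. The log2 ratio of mt-Nd5 to mt-Co1 was -0.98 in replicate 3 of Control and -1.18 to -1.17 in the other 3. The log2 ratio of mt-Nd6 to mt-Nd5 was -1.67 in replicate 4 of Control and -1.47 to -1.44 in the other 3, and -0.86 in replicate 3 of 20CBD and -1.38 to -1.29 in the other 3. The log2 ratio of mt-Rnr2 to mt-Co1 was -0.77 in replicate 2 of Control and -2.79 to -2.52 in the other 3.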

How the results depend on the processing

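The count of mitochondrial genes called was 0 in each comparison under every alternative that used edgeR or limma-voom with a filter on low counts. DESeq2 called 1 at 10 mg (mt-Tc), where it called 40 of all genes tested. With no filter on low counts, edgeR called 12, 8 and 15 of the 33 mitochondrial genes then tested (10 mg, 20 mg and between the doses) and 1, 3 and 4 nuclear partner genes, while its calls over all genes rose from 5, 52 and 0 to 331, 416 and 256. Adding the replicate number as a block left 0 called in each comparison. Mice sharing a number had deviations that correlated by -0.33 to 0.32. Mice of different numbers were not compared, so this does not settle whether the numbers pair mice. The block turned mt-Tp to -0.019 at 10 mg, mt-Co1 to -0.17 at 20 mg and mt-Rnr1 to 0.12 between the doses.

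Without replicates 1 and 3 of 10CBD, chosen after seeing the data, the mitochondrial genes with an unadjusted p under 0.05 at 10 mg fell from 11 to 3. These mice were chosen for their extreme values, so the changes that follow are no independent check. Log2 fold changes at 10 mg turned to 0.22 (mt-Nd1), 0.50 (mt-Nd2), 0.074 (mt-Co1), 0.25 (mt-Co2), 0.42 (mt-Atp6), 0.44 (mt-Co3), 0.68 (mt-Nd3), 0.44 (mt-Nd4), 0.36 (mt-Nd5), 0.40 (mt-Nd6), 0.27 (mt-Cytb), 0.48 (mt-Rnr1), 0.44 (mt-Rnr2) and -0.24 (mt-Ts2). Between the doses they turned to -0.30 (mt-Co3), 0.73 (mt-Tv), 0.082 (mt-Tl1), 0.72 (mt-Tq), 0.41 (mt-Tm), 0.53 (mt-Ta), 0.24 (mt-Tc), 0.041 (mt-Tr), 0.91 (mt-Ts2), 0.32 (mt-Te) and 0.28 (mt-Tt). Added pseudogene counts gave 0.31 (mt-Co2) and 0.18 (mt-Co3) at 10 mg and 0.29 (mt-Nd4l) at 20 mg. Between the doses mt-Rnr1 was 0.18 with limma-voom and 0.0042 without the filter.

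Leaving out 1 library gave, at 10 mg, -0.78 to 0.062 (mt-Nd2), -0.60 to 0.20 (mt-Nd3), -0.61 to 0.077 (mt-Nd4), -0.65 to 0.022 (mt-Nd5), -0.62 to 0.15 (mt-Nd6), -0.47 to 0.15 (mt-Rnr1), -0.37 to 0.16 (mt-Rnr2) and -0.26 to 0.31 (mt-Tp). At 20 mg it gave -0.14 to 0.46 (mt-Co1), -0.10 to 1.56 (mt-Atp8), -0.12 to 0.34 (mt-Co3) and -0.72 to 0.40 (mt-Nd4l). Between the doses it gave -0.24 to 0.38 (mt-Rnr1), -0.35 to 0.18 (mt-Rnr2), -0.75 to 0.056 (mt-Tq), -0.54 to 0.12 (mt-Ta) and -0.47 to 0.12 (mt-Te).

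The log2 ratios of mt-Nd5 to mt-Co1, mt-Cytb to mt-Co1 and mt-Nd6 to mt-Nd5 differed from Control at 20 mg by 0.48, 0.32 and 0.16 with medians in place of means (exact permutation p = 0.0571 each). Leaving out 1 mouse gave 0.34 to 0.49, 0.19 to 0.36 and 0.070 to 0.20 at 10 mg and 0.38 to 0.49, 0.27 to 0.37 and 0.18 to 0.36 at 20 mg. Between the doses the first pair turned to -0.0088 and -0.018 with medians and ranged from -0.055 to 0.092 and from -0.029 to 0.14. mt-Rnr2 to mt-Rnr1 ranged from -0.19 to 0.039 at 20 mg. mt-Rnr2 to mt-Co1 ranged from -0.86 to 0.26 at 20 mg and from -1.55 to -0.52 between the doses. The causes of these changes were not tested.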
